A study of Mus musculus with 2 samples.

Results

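Enterochromaffin (EC) cells were taken from scRNA-seq of sorted mouse intestinal epithelium as barcodes with RNA of at least 3 of the 6 endocrine genes Chga, Chgb, Neurod1, Scg3, Cpe and Pcsk1 and at least 2 unique molecular identifiers (UMIs) of Tph1. The gate was applied to barcodes with at least 1354 UMIs, at least 200 detected genes and at most 25% of UMIs from mitochondrially encoded (mt-) genes. It selected 221 of 12554 such barcodes, 150 of 7401 from the WT library and 71 of 5153 from the MG53-TG library. The cells were thus chosen by measured UMIs of the gate's 7 genes, whose levels are given below as a description only. Both libraries came from mice given 2.5% dextran sodium sulfate (DSS), a colitis-inducing polymer, and collected on day 7. MG53-TG mice overexpress MG53, the membrane-repair protein encoded by Trim72, throughout the body, and the WT mice were their littermates. The transgene's promoter and the age of the mice were not given in the sources used here. Crypts were dissociated, and 7-AAD-EpCAM+ cells, that is live epithelial cells, were sorted. Each genotype had 1 library, for which the study states several animals per group. How these were combined into each library was not given in the sources used here. Genotype and library therefore cannot be told apart, and no test between genotypes was possible.

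EC cells are the serotonin-producing endocrine cells of the gut epithelium. They hydroxylate tryptophan with TPH1, decarboxylate the product with DDC, load serotonin into granules with the transporter SLC18A1, and release it onto nerve endings and neighbouring cells when chemical or mechanical stimuli open their ion channels. Many of them also carry peptides, of which substance P, encoded by Tac1, and secretin, encoded by Sct, are the best known.

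Few barcodes lay at the Tph1 limit. Among barcodes with at least 3 of the 6 endocrine genes, 181 in WT and 109 in MG53-TG had no Tph1 UMI, and 12 and 6 had exactly 1. Just inside the limit, 7 and 2 had 2 UMIs, while 93 and 47 had 10 or more. The median EC cell held 14 Tph1 UMIs (WT) or 16 (MG53-TG), and the highest held 92 and 173. Median Chgb RNA, in UMIs per 1000000 UMIs of the cell (CPM), was 2590 and 5591 in the barcodes with 1 Tph1 UMI against 44596 and 23345 in those with 2. Median Chga RNA showed no such step in WT, at 2370 against 2115 CPM, and stood at 2704 against 4153 CPM in MG53-TG. All 6 endocrine genes were detected in 89 WT and 53 MG53-TG EC cells. No EC barcode sequence occurred in both libraries, although 8 of the kept barcodes did.

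The libraries differed in depth and in the Cell Ranger version that made the counts, and neither can be told apart from genotype. The median EC cell held 6615.5 UMIs from 2602.5 genes in WT and 8390 UMIs from 3102 genes in MG53-TG, with mitochondrial medians of 3.50% and 3.32%. Barcodes above 30000 UMIs were 6 in WT and 1 in MG53-TG, and they supplied 20.4% and 14.3% of all EC UMIs. A summed level therefore leans on few cells, and some ratios are also given without these barcodes. Kept barcodes with T cell RNA numbered 857 and 325 in spite of the sort. The part of these differences in the results below was not tested.

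The label fitted the fixed markers, though not all of them equally well. The gate did not read Slc18a1 and Lmx1a. Both were present in most EC cells and nearly absent from tuft cells of the same libraries, which are chemosensory cells without serotonin synthesis. Slc18a1 was detected in 93.3% of WT and 90.1% of MG53-TG EC cells against 6.69% and 2.50% of tuft cells. The other endocrine cells, those with at most 1 Tph1 UMI, lay between, at 36.8% and 37.4%. Lmx1a, a homeodomain factor of the EC lineage, was detected in 74.0% and 78.9% of EC cells and in none of 284 and 320 tuft cells, which allows up to 1.06% and 0.938%. Tuft cells were deeper than EC cells, with medians of 11836 and 15084 UMIs, so depth did not favour EC cells in these shares. After thinning every cell to 5000 UMIs, which left out 51 WT and 12 MG53-TG EC cells, Lmx1a was expected in 59.9% and 65.4% of EC cells and Slc18a1 in 80.7% and 79.5%. Ddc was less particular, expected in 86.8% and 91.5% of EC, 66.2% and 83.1% of other endocrine and 14.7% and 17.3% of tuft cells. Fev was expected in 51.9% and 50.9% of EC and 30.2% and 38.4% of other endocrine cells. For Tac1 these shares were 76.9% and 74.2% against 9.85% and 15.7%. The leukocyte gene Ptprc was found in 0.667% and 1.41% of EC cells, against 94.9% and 98.5% of T cells.

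EC cells made up 2.03% of kept barcodes in WT (exact 95% interval 1.72 to 2.37) and 1.38% in MG53-TG (1.08 to 1.73). The difference was -0.649 percentage points (-1.10 to -0.185). Intervals here and below cover counting error only and say nothing of variation between mice. The share also depended on the gate, since the interval of the difference spanned 0 in 4 of the 8 other settings, namely when 5 of the 6 endocrine genes were required (-0.828 to 0.0505), when cells needed 5000 UMIs (-0.866 to 0.0975), when Tph1 needed 10 UMIs (-0.704 to 0.0322) and when all cells were thinned to 5000 UMIs before gating (-0.691 to 0.210). Measured against endocrine barcodes, EC cells were 43.7% of 343 (38.4 to 49.2) and 38.2% of 186 (31.2 to 45.6), a difference of -5.56 points (-14.1 to 3.26). A smaller EC share of the endocrine barcodes was thus not detectable at these cell numbers.

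**Figure D1:**
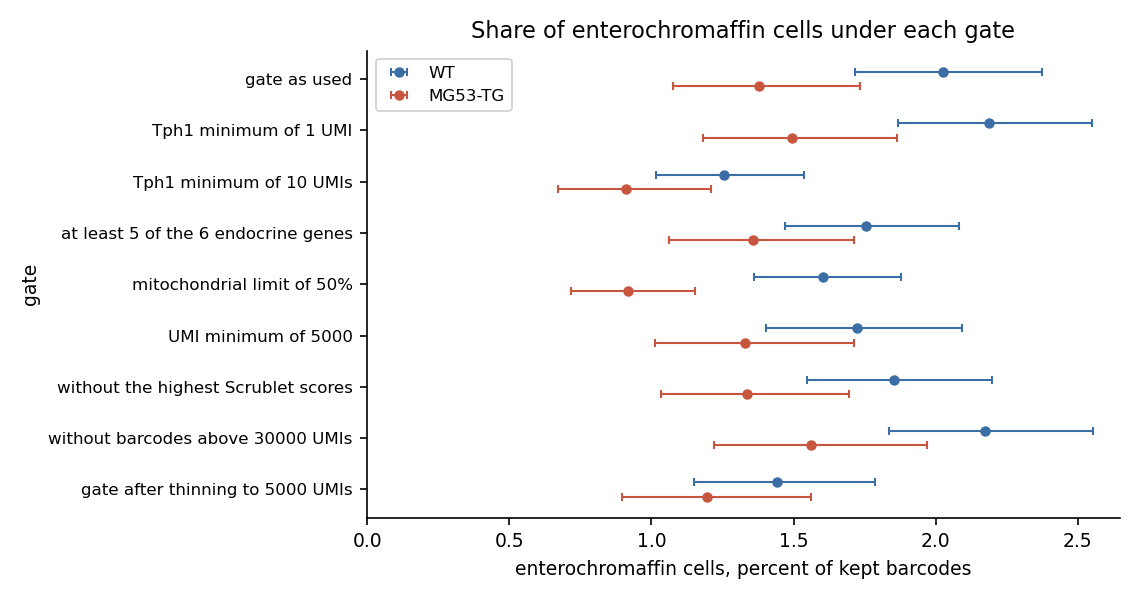
Share of kept barcodes in the EC gate (x axis, percent) under each gate setting (y axis) in WT and MG53-TG, with exact 95% binomial intervals as bars. The point of MG53-TG lies below that of WT in all 9 settings, from 2.03% against 1.38% for the gate as used to 1.44% against 1.20% after thinning, and the intervals overlap in 7 of them.

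The serotonin pathway was detected from synthesis to storage, at close levels in the 2 libraries. Tph1, used by the gate, stood at 1893 and 2400 CPM in WT and MG53-TG, here and below as UMIs summed over EC cells and divided by all their UMIs. Pairs of values without a label give WT first. Ddc stood at 670 and 740 CPM, Slc18a1 at 409 and 439 CPM, and Slc18a2, the neuronal vesicle transporter, at 86.6 and 112 CPM. Slc18a1 was the vesicle transporter of nearly every EC cell, whereas Slc18a2 was detected in 32.0% and 23.9% of them, against 0.704% and 2.81% of tuft cells. Gch1, which starts the synthesis of the cofactor tetrahydrobiopterin, was at 167 and 194 CPM, and Qdpr, which regenerates the cofactor, at 350 and 278 CPM. Of all 3630 genes with at least 30 UMIs and 50 CPM in one library, 38 (1.05%) were at least 2-fold higher in MG53-TG and 104 (2.87%) at least 2-fold lower. None of the 8 synthesis and cofactor genes that met these minimums, of 12 looked up, was past 2-fold in either direction. Their median log2 ratio of MG53-TG over WT was 0.18, beside 0.08 for all genes.

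Of the genes that end the serotonin signal, the transporter gene was scarce and Maoa differed between the libraries. Slc6a4, the plasma membrane serotonin transporter, had 16 and 4 UMIs. Maoa, the oxidase that degrades serotonin, stood at 138 and 43.1 CPM, a log2 ratio of -1.68 (-2.26 to -1.14). It was the 1 gene past 2-fold among the 4 of 8 transport and breakdown genes that met the minimums. Its ratio narrowed to -0.72 with 1 Tph1 UMI as the limit and was -1.07 without the barcodes above 30000 UMIs. Droplets of the WT library with fewer than 100 UMIs, which hold free RNA, carried Maoa at 187 CPM, and the part of free RNA in the EC level was not tested. The 3 enzymes Tph2, Aanat and Asmt, of neuronal serotonin and of melatonin synthesis, had no UMI in either library, which allows each up to 2.03 CPM (WT) or 4.04 CPM (MG53-TG).

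Several EC genes carry the same short motif upstream of their start sites. Matches to the cAMP response element TGACGTCA (CRE), which reads the same on both strands, or to its shorter part TGACG (on the other strand CGTCA) were searched in the 120 bases before each RefSeq start (GRCm38) of 20 EC genes, of which 17 had an entry. The CRE stood in 3 of the 17 (17.6%), against 1.24% of all 32851 promoters of this length, and the shorter site, which the full site contains, in 7 of 17 (41.2%) against 11.7%. The genes were picked with their levels known, so these shares are a description, and a match is not evidence of binding. The sequences shown are those of all 7 genes with a site, which are 5 of the gate's genes and the peptide genes Cartpt and Tac1. Capitals mark the CRE in the first 3 and the shorter site in the others, and 30 bases are printed where an annotated exon overlaps the window.
Chgb, chr2:132781559-132781588, plus strand: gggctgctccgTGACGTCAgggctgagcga
Pcsk1, chr13:75089768-75089797, plus strand: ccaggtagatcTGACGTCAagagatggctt
Cartpt, chr13:99900774-99900803, minus strand: gcgggcatTGACGTCAaacggcagcggagc
Tac1, chr6:7555005-7555034, plus strand: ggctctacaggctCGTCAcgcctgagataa
Chga, chr12:102554821-102554940, plus strand: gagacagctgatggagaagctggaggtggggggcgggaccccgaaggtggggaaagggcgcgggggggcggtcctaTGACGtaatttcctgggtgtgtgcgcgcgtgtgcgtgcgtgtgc
Scg3, chr9:75684057-75684176, minus strand: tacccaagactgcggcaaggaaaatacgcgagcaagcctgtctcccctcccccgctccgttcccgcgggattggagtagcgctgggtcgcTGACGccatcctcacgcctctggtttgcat
Tph1, chr7:46672538-46672657, minus strand: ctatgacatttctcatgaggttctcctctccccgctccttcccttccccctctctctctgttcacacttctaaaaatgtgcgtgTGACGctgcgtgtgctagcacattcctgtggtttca
The CRE began 72 bases before the start of Chgb, 78 before that of Pcsk1 and 112 before that of Cartpt. The shorter site began 43 bases before Tac1, 44 before Chga, 30 before Scg3 and 36 before Tph1. Neither motif lay in the window of Sct, Reg4, Afp, Ddc, Lmx1a, Fev, Neurod1, Slc18a2, Ucn3 or Vim. Cpe, Slc18a1 and Trpa1 had no entry.

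Set against the other endocrine cells, EC cells differed by large steps in both libraries. The comparison set held barcodes with at least 3 of the 6 endocrine genes and at most 1 Tph1 UMI, 193 in WT and 115 in MG53-TG. Of 3158 genes with enough RNA, 63 (1.99%) were at least 4-fold higher in EC cells in each library and 23 (0.728%) at least 4-fold lower. The 63 include 3 of the gate's 7 genes, and the 2 cell sets were split on Tph1 itself. Outside the gate's genes, the strongest of the higher genes included transcription and RNA genes, channels, transporters and secreted proteins. Lmx1a was at 195 and 217 CPM in EC cells and at 2.24 and 3.27 CPM in the other endocrine cells. Rpp25, a subunit of RNase P, was at 51.4 and 51.2 CPM against 1 UMI in WT and none in MG53-TG. Slc38a11, an amino acid transporter family member, stood at 162 and 221 CPM against 2.24 and 3.27 CPM, and Kcnc1, a voltage-gated potassium channel, at 97.4 and 163 CPM against 2.56 and 4.58 CPM. Also among the 15 highest were the secreted proteins Reg4, Afp and Cartpt, the irritant-sensing channel Trpa1, the surface glycoprotein Tpbg, the cytokine receptor chain Il18r1 and the transporter Slc18a2. The WT comparison set held Paneth cell RNA, with Defa24 at 48403 CPM against 391 CPM in MG53-TG, and its part in the WT ratios was not tested.

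The 23 genes lower in EC cells included 6 of the 12 peptide genes with enough RNA and 3 of the 20 factors of endocrine identity. Sst, which encodes somatostatin, had 17 and 6 UMIs in EC cells and 17055 and 25951 CPM in the other endocrine cells. Gip, the glucose-dependent insulinotropic peptide gene, had 35 and 14 UMIs against 26407 and 35736 CPM. These EC levels, 23.7 and 18.9 CPM for Gip, were far under the 993 CPM of the WT empty droplets. Isl1, a factor of several peptide-producing endocrine lineages, was at 20.3 and 32.3 CPM against 448 and 890 CPM, a log2 ratio of -4.46 and -4.78. Fabp5, a fatty acid carrier, was at 59.5 and 94.3 CPM against 2087 and 3463 CPM. Gcg, Iapp, Pyy, Abcc8, Cnr1 and Ghrl completed the 10 lowest genes.

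**Figure D2:**
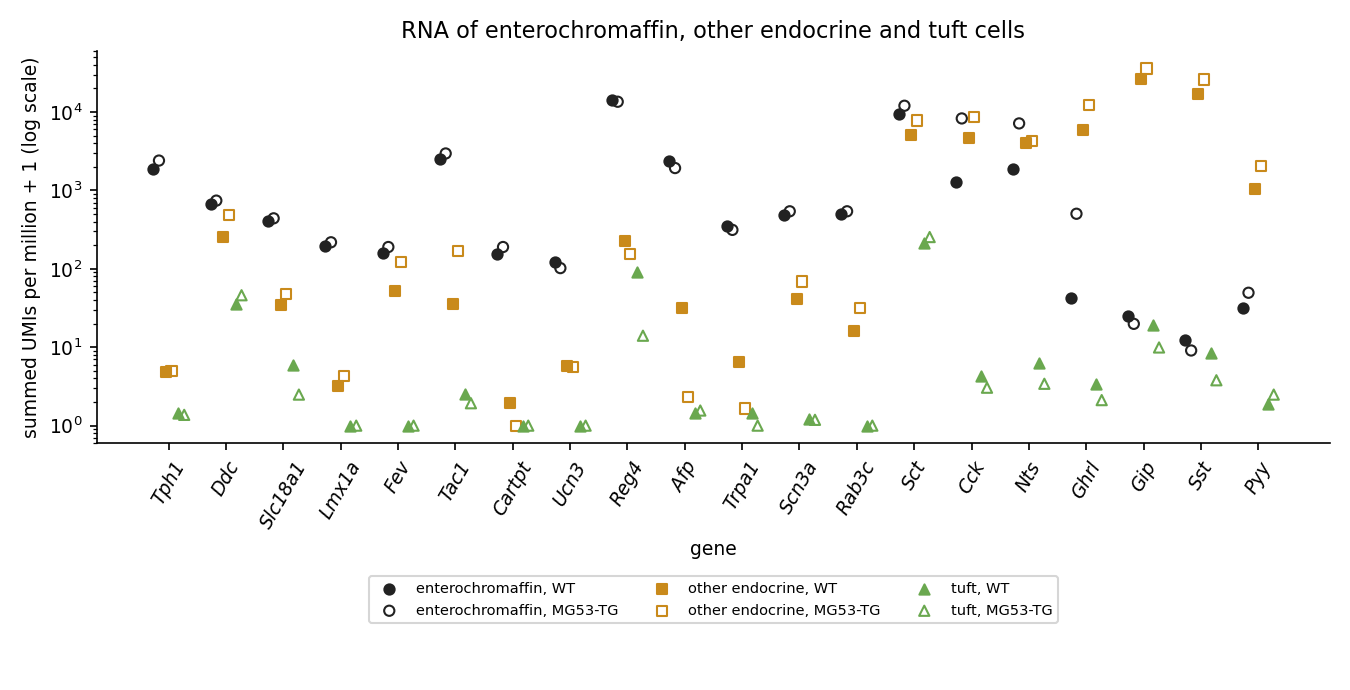
CPM plus 1 (y axis, log scale) of 20 genes (x axis), summed over EC, other endocrine and tuft cells, with WT filled and MG53-TG open. From Tph1 to Rab3c the EC points are the highest in both libraries, and for Ghrl, Gip, Sst and Pyy the other endocrine points are, with Gip at 26407 and 35736 CPM there against 23.7 and 18.9 CPM in EC cells.

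Within the EC cells, the peptide RNA with the most UMIs was mostly that of Sct or Tac1. Sct led in 77 of 150 WT cells (51.3%, 43.0 to 59.6) and 32 of 71 MG53-TG cells (45.1%, 33.2 to 57.3). Tac1 led in 66 (44.0%, 35.9 to 52.3) and 29 (40.8%, 29.3 to 53.2). Cck led in 2 WT cells (1.33%, 0.162 to 4.73) and 5 MG53-TG cells (7.04%, 2.33 to 15.7), Nts in 1 and 2, Ucn3 in none and 2, and Cartpt and Sst in 1 WT cell each, with ties in 2 and 1. UMIs of both were found in 114 WT and 49 MG53-TG cells. Sct UMIs were also found in 81.7% and 81.9% of tuft cells, at 211 and 253 CPM, and in 11.2% and 9.54% of T cells. After thinning to equal depth as above, the expected Sct shares were 59.6% and 60.5% for tuft cells and 17.6% and 11.7% for T cells. A low Sct count in an EC cell may be background, which was not tested. Low counts were not removed from the leading-peptide calls, in which 2 Sct-led WT cells had 53.5 and 187 CPM of Sct. Summed Tac1 was 2486 and 2956 CPM and summed Sct 9351 and 12007 CPM. The 3 highest cells held 44.5% and 39.9% of the Sct UMIs, and the median cell had 2283 and 5834 CPM of Sct and 1531 and 628 CPM of Tac1.

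Some genes differed between these groups in the same direction in both libraries. They were picked after their values were seen, and others changed order. Reg4 averaged 22388 CPM in Tac1-led and 15796 CPM in Sct-led WT cells but 12332 and 22369 CPM in MG53-TG, and Chga and Lmx1a turned in the same way. Ddc averaged 1223 CPM over the WT cells led by Tac1 and 673 CPM over those led by Sct, and 1256 and 585 CPM in MG53-TG. Vim, an intermediate filament gene, averaged 1976 against 478 CPM in WT and 1859 against 484 CPM in MG53-TG. Fev, a factor of serotonergic cells, averaged 325 against 151 CPM and 315 against 123 CPM, and Nkx2-2, an endocrine lineage factor, 266 against 81.9 CPM and 207 against 72.8 CPM. The opposite order held for Tph1, at 2089 against 3314 CPM in WT and 1803 against 4579 CPM in MG53-TG, and for Krt20, a keratin of mature villus epithelium, at 422 against 1026 CPM and 784 against 1473 CPM. Cartpt, the CART peptide gene, took part in the calls and was detected in 6 of 66 WT cells led by Tac1 and 24 of 77 led by Sct, and in 4 of 29 and 17 of 32 in MG53-TG. Median depth was 6842 UMIs for the Tac1-led and 5597 for the Sct-led WT cells, and 9254 and 6787.5 in MG53-TG.

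Across single EC cells, the genes that followed Tac1 most closely, ranked by the smaller of the rhos of the 2 libraries, were Vim, with a Spearman rho of 0.79 over 150 WT cells and 0.77 over 71 MG53-TG cells, then Gstt1, Cox7a2l, Chgb and Ddc. Gstt1 is a glutathione transferase and Cox7a2l a factor of respiratory supercomplexes. Cells of one library share their library preparation, and their depth differs, so these coefficients are descriptions. Over the cells with at least 5000 UMIs, Tac1 and Sct had a rho of -0.15 in WT and -0.53 in MG53-TG, which was weak in WT. Sct and Tph1 had 0.44 and 0.49, and Cartpt and Tph1 0.53 and 0.56.

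**Figure D3:**
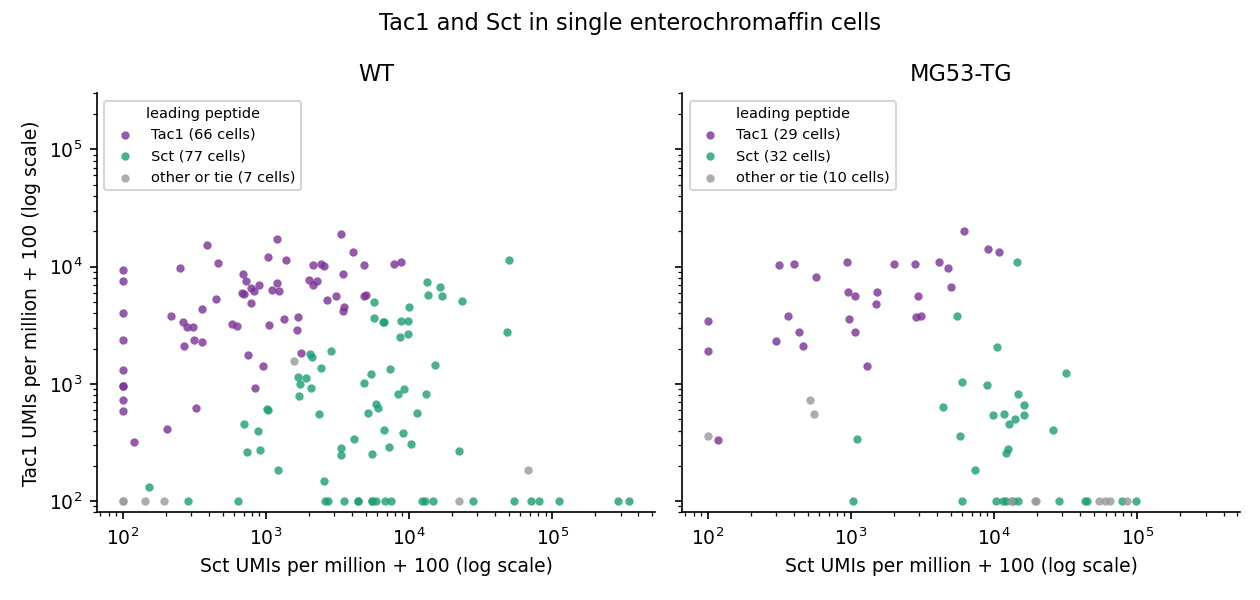
Each point is 1 EC cell, with Sct on the x axis and Tac1 on the y axis in CPM plus 100 (log scales), coloured by the leading peptide, in WT and MG53-TG. Cells led by Tac1 (66 and 29) and by Sct (77 and 32) adjoin along the diagonal with no gap, and points at 100 have no UMI of the gene.

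Reg4 divided the EC cells along another line. REG4 is a secreted lectin of the regenerating family. Summed over EC cells it stood at 14176 and 13508 CPM, while 49 WT and 29 MG53-TG cells had no Reg4 UMI at all. At least 10000 CPM was found in 51 and 27 cells. A limit at that value cuts a range rather than 2 separate types, because 13 and 5 cells lay between 5000 and 10000 CPM and 11 and 6 between 10000 and 20000 CPM. Cells led by Tac1 numbered 28 of the 51 and 8 of the 27 above the limit, and those led by Sct 22 and 16, so both kinds of cell lay on both sides of it. Reg4 UMIs were also found in 14.1% and 6.56% of tuft cells, at 91.0 and 13.0 CPM.

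Cells rich in Reg4 carried more Trpa1, Afp, Ucn3 and Chga RNA than the others. Trpa1 averaged 1071 CPM in the WT cells above the limit and 118 CPM in the others, and 820 and 175 CPM in MG53-TG. It was detected in 88.2% of the former and 29.3% of the latter in WT, and in 81.5% and 31.8% in MG53-TG, against 0.352% of WT and none of the MG53-TG tuft cells. Afp, the alpha-fetoprotein gene, averaged 9115 against 64.7 CPM and 6344 against 28.7 CPM. Ucn3, the urocortin 3 gene, averaged 377 against 34.9 CPM and 207 against 70.0 CPM, and was detected in 66.7% against 11.1% of WT and 40.7% against 18.2% of MG53-TG cells. Chga, which the gate used, averaged 30600 against 13905 CPM and 25307 against 11254 CPM. Neurog3, the factor that starts the endocrine fate, had UMIs in none of the 51 and 27 cells above the limit, which allows up to 5.88% and 11.1% of cells with a UMI, and in 10.1% and 15.9% of the others. Over single cells, Reg4 had a rho with Afp of 0.72 in both libraries, with Trpa1 of 0.64 and 0.63, with Chga of 0.56 and 0.64, and with Ucn3 of 0.52 and 0.34.

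**Figure D4:**
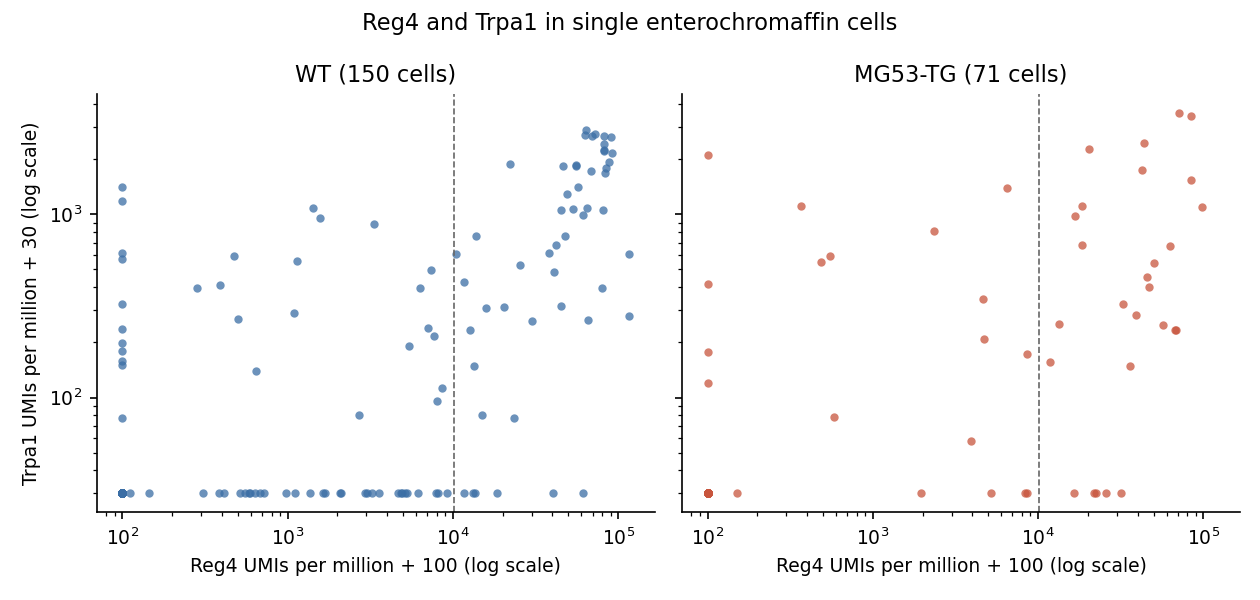
Each point is 1 EC cell, with Reg4 (x axis, CPM plus 100) against Trpa1 (y axis, CPM plus 30), both on log scales, in WT (150 cells) and MG53-TG (71 cells), with a dashed line at 10000 CPM of Reg4. Most cells to its right carry Trpa1 (88.2% and 81.5%) and most to its left sit on the baseline of no Trpa1 UMI.

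Peptides of other endocrine types were high in few EC cells of each library. Cck, the cholecystokinin gene, reached 1000 CPM in 8 WT and 9 MG53-TG cells, Nts, the neurotensin gene, in 4 and 6, and Ghrl, the ghrelin gene, in 2 and 4. Some cells recurred, since all 2 and 4 cells with that much Ghrl also had that much Cck, Scg2 and Sct. Scg2 encodes a granule protein. These cells held 2 to 90 Tph1 UMIs. Cartpt reached 1000 CPM in 14 and 5 cells, and none of these reached it for Cck, Nts or Ghrl. Cells of these kinds had median depths of 6995.5 UMIs for Cck in WT and 9273 in MG53-TG. Whether such a barcode held 1 cell or 2 was not tested.

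Few cells made up the largest differences in endocrine RNA between the libraries, and the cell with the most Nts UMIs in each library had no Cck UMI. Cck was at 1284 and 8271 CPM (log2 ratio 2.69, 2.61 to 2.76), Nts at 1896 and 7146 CPM (1.91), Ghrl at 41.3 and 503 CPM (3.61) and Scg2 at 166 and 780 CPM (2.23). The 3 highest cells held 86.0% and 66.0% of Cck UMIs, 97.2% and 95.3% of Nts UMIs, and 88.5% and 89.3% of Ghrl UMIs. The median EC cell had no UMI of these 4 genes in either library. Cck was detected in 25.3% and 26.8% of EC cells against 5.28% and 3.44% of tuft cells, and Ghrl in 6.67% and 11.3% against 3.87% and 1.88%. Among the 7 of 25 peptide genes that met the minimums, these 3 were at least 2-fold higher in MG53-TG and none was 2-fold lower. As sums, Tac1, Sct, Ucn3 and Cartpt stayed within 2-fold, with log2 ratios of 0.25, 0.36, -0.25 and 0.32. The median cell was past 2-fold for 2 of these genes. It had 2283 and 5834 CPM of Sct, and 1531 and 628 CPM of Tac1, the opposite order to the Tac1 sums. The median cell had no UMI of Ucn3 or Cartpt.

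Of the factors that set endocrine identity, 19 of 30 met the minimums, and 2 were past 2-fold, both higher in MG53-TG. Etv1 had 28 and 55 UMIs, which is 18.9 and 74.1 CPM, and was found in 11 WT and 17 MG53-TG cells. Onecut3 was at 31.1 and 90.3 CPM, in 12 and 16 cells. The 3 highest cells gave 71.4% and 41.8% of the Etv1 UMIs. Ret, a neurotrophic factor receptor, had 51 and 63 UMIs (1.30) in 32 and 28 cells. Of the other genes among the 10 highest in MG53-TG, Sbpl came from 4 and 1 cells, Pzp from 3 and 7, and Ccl5, a T cell chemokine at 2728 CPM in the WT empty droplets, from 19 and 5. Lmx1a (0.15), Fev (0.27) and Nkx2-2 (-0.09) lay near the median log2 ratio of all genes. Among regional genes, Gata4, a factor of the proximal small intestine, had 53 and 18 UMIs, and Hoxa13, Hoxb13 and Hoxd13, factors of the distal gut, had none.

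The receptor and channel genes gave a profile of what EC cells could sense. Of 40 receptor and sensor genes, 31 had a UMI and 6 met the minimums, none past 2-fold between libraries. Trpa1 was at 351 and 313 CPM, and the cation channel Trpm2 at 106 and 129 CPM. Ffar2, a short-chain fatty acid receptor, was at 158 and 286 CPM (0.86, 0.58 to 1.13) and in 66.7% and 85.9% of EC cells, 34.7% and 55.7% of other endocrine cells and 3.87% and 2.81% of tuft cells. Sstr1, a somatostatin receptor, was at 93.3 and 109 CPM. Piezo2, a mechanosensitive channel known from EC cells, had no UMI in either library, which allows up to 2.03 and 4.04 CPM.

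Electrical and release genes completed the picture. Scn3a, a voltage-gated sodium channel, was at 480 and 540 CPM in EC cells and at 39.7 and 68.0 CPM in other endocrine cells, and was detected in 91.3% and 94.4% of EC cells. Cacna1a, a presynaptic-type calcium channel, was at 227 and 310 CPM. Rab3c, a vesicle GTPase, was at 503 and 540 CPM, a log2 ratio over other endocrine cells of 5.06 and 4.14, and Snap25, a fusion protein, at 206 and 234 CPM against 33.0 and 58.2 CPM. None of the 7 excitability genes that met the minimums, of 20, and 1 of the 23 granule and exocytosis genes, of 32, was past 2-fold between libraries, and that 1 was Scg2. The median log2 ratio of the granule and exocytosis genes was 0.27 as sums and 0.07 as means of single cells, beside 0.08 and 0.02 for all genes. The small excess in MG53-TG was thus smaller when each cell had equal weight.

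Trim72, the transgene, separated the libraries. It had no UMI in the 150 WT EC cells and 175 UMIs in the 71 MG53-TG cells, 236 CPM (202 to 273). WT was not free of Trim72 RNA, as its empty droplets held 52 UMIs (8.70 CPM) and its other endocrine cells 1. Against the 3 counts that a total of 0 allows over the WT cells, the level in MG53-TG was 116-fold higher. That ratio leaves out the counting error of the 175 UMIs. The RNA was detected in 69.0% of MG53-TG EC cells, against 32.2% of the other endocrine cells, 50.9% of tuft cells and 16.6% of T cells of the same library. As summed CPM it stood at 52.3 in other endocrine and 60.8 in tuft cells. Thinned to 5000 UMIs, the expected shares were 55.0% for EC, 18.4% for other endocrine and 24.6% for tuft cells. The other 9 membrane-repair genes looked up gave 3 that met the minimums, the annexins Anxa2, Anxa5 and Anxa6, none past 2-fold.

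**Figure D5:**
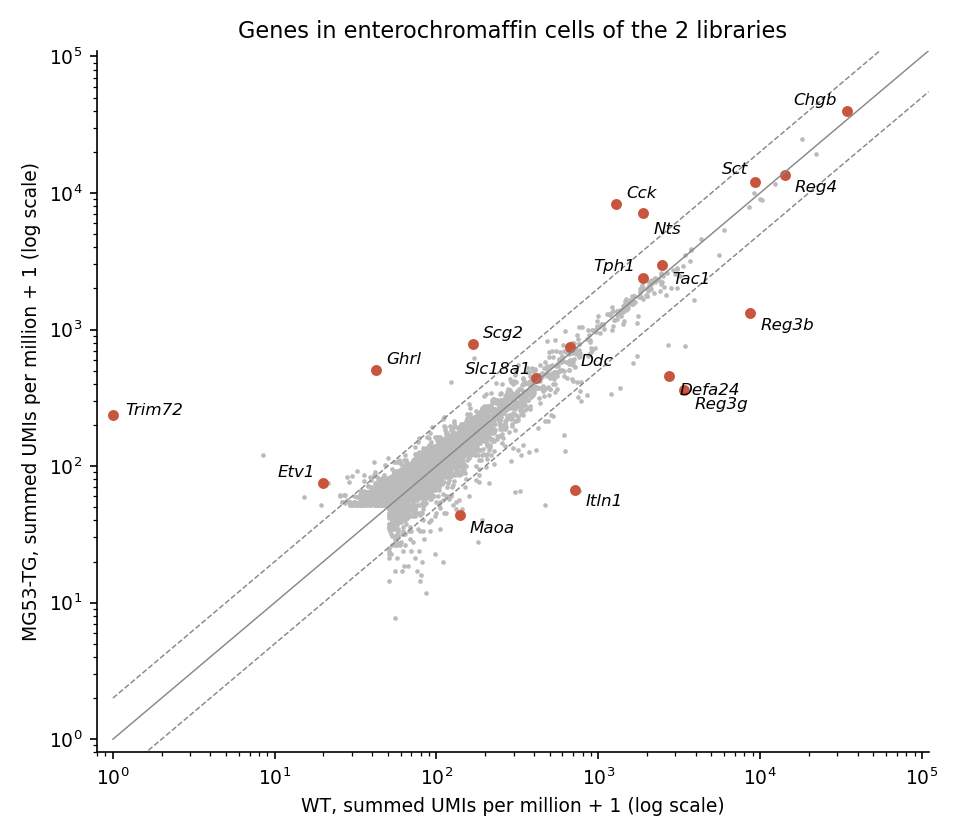
CPM plus 1 in EC cells of WT (x axis) and MG53-TG (y axis) on log scales for the 3630 genes with enough RNA, with lines of equality (solid) and of a 2-fold difference (dashed) and selected genes in red. Trim72 lies alone at the left (0 against 236 CPM), Cck, Nts, Scg2, Ghrl and Etv1 above the lines, and Reg3b, Reg3g, Defa24, Itln1 and Maoa below.

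Among the genes lower in MG53-TG, those furthest from 1 were mostly products of other cell types. The 10 lowest were Itln1, Defa17, Defa22, Defa24 and Mmp7, which are Paneth cell products, the antibacterial lectins Reg3b and Reg3g, the mitotic gene Birc5, which fell under the minimums without the barcodes above 30000 UMIs, and the gene models AY761184 and Gm7861. Defa24 was at 2752 and 453 CPM in EC cells (log2 ratio -2.60), and Reg3b at 8671 and 1310 CPM (-2.73). All 7 of the Paneth markers that met the minimums were at least 2-fold lower, with a median of -2.60, -2.54 without the barcodes above 30000 UMIs and -1.86 as means of single cells. Their summed level ranged over cells from 293 to 167048 CPM in WT and from 83.3 to 4113 CPM in MG53-TG, with medians of 1723 and 904 CPM. In WT empty droplets the same 8 markers summed to 42647 CPM, above the 4905 CPM summed over the WT EC cells, and the part of this RNA in the difference was not tested. No such droplets were analysed for MG53-TG, whose file starts at 500 UMIs. Lyz1, the defining lysozyme, was at 306 and 63.3 CPM in EC cells and at 2938 CPM in the WT empty droplets.

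Enterocyte and goblet RNA behaved less evenly. Of 9 enterocyte markers that met the minimums, 6 were at least 2-fold lower in MG53-TG, with a median log2 ratio of -1.24, but -0.22 without the barcodes above 30000 UMIs. Fabp1, a fatty acid carrier of enterocytes, was at 2714 and 775 CPM, and 3 cells held 59.9% and 79.7% of its UMIs. Goblet markers gave a median of -0.66, which was -0.28 without those barcodes and turned to 0.14 as means of single cells. Their summed level was 18571 and 10567 CPM in EC cells and 39247 CPM in WT empty droplets, and over cells ranged from 354 to 121798 CPM and from 324 to 212201 CPM. The summed enterocyte markers were at 12781 and 5986 CPM against 16341 CPM in the droplets. No tuft or T cell marker met the minimums. The cycling genes were also lower, with Mki67, a proliferation marker, at 110 and 12 UMIs and Top2a, a mitotic topoisomerase, at 108 and 15, of which 3 cells held 65.5% and 100% for Mki67. The other 2 of the 4 stem and cycling genes that met the minimums, Olfm4 and Axin2, were at least 2-fold higher, with log2 ratios of 1.86 and 1.32, but -3.04 and 0.30 without the barcodes above 30000 UMIs. Without them the ratios of Mki67 and Top2a were -4.26 and -5.49, beside -2.20 and -1.85 with them.

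The remaining gene lists are read against the 1.05% of all genes that were 2-fold higher and the 2.87% that were 2-fold lower. Of 18 genes of PPAR signalling and fatty acid use that met the minimums, none was 2-fold higher and 2 were 2-fold lower, namely Fabp1 and Fabp2, with a median of -0.24. Without the barcodes above 30000 UMIs the median was -0.08, Fabp1 was at -0.95 and Fabp2 at -1.18, beside -1.81 and -1.87 with them. The 8 amino acid response genes had none past 2-fold and a median of -0.19, which turned to 0.01 without the barcodes above 30000 UMIs, and 1 of 18 interferon genes met the minimums, Ifi27l2b, with a ratio of -0.40 that turned to 0.19 without those barcodes. In the inflammation list, 3 of 5 were at least 2-fold lower, Reg3b, Reg3g and Cd74, of which Cd74 had -1.10 but -0.96 without the barcodes above 30000 UMIs and -0.60 as a mean of single cells. Among the 10 immediate early genes that met the minimums, Jun and Egr1 were just over 2-fold higher. Jun had a log2 ratio of 1.04, which was 0.90 without the barcodes above 30000 UMIs and under 2-fold also without the highest doublet scores, as a mean of single cells and with median-of-ratios scaling. The ratio of Egr1 was under 2-fold in the second and the last of these settings, with Egr1 at 110 and 229 CPM (1.06, 0.74 to 1.38). Immediate early genes are also known to respond to tissue dissociation, whose part was not tested. When each cell was given equal weight, 56 genes were at least 2-fold higher and 53 lower, beside 38 and 104 by sums.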

How the data were processed

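Libraries made with 10x Genomics 3′ version 3 chemistry, 1 of WT and 1 of MG53-TG, were analysed. The values deposited by the authors were raw UMI counts for each gene in each barcode. Cell Ranger 4 (WT) and 6.0.1 (MG53-TG) with mm10 made them, per the file headers and the submitters' processing notes, which also name Seurat. The WT file lists barcodes from 1 UMI and the MG53-TG file from 500 UMIs. Matched gene IDs numbered 32158 of 32285 in GENCODE M21. The members and gene lists were chosen with earlier results of these data known. With 1 library per genotype, no test was run: counts were summed over cells and divided by all UMIs (CPM), with exact Poisson, Clopper-Pearson or conditional binomial 95% intervals, Newcombe intervals for differences of shares, and a floor of 3 counts for 0. The 3′ kit counts 1 tag per molecule, so levels were not divided by length. A gene was past the fold at 2-fold between libraries, or 4-fold over other endocrine cells in each library. Named genes were those of the fixed lists, the 10 highest and 10 lowest between libraries with intervals excluding 0, the 15 highest and 10 lowest over other endocrine cells, and the 5 that followed Tac1; genes shown by leading peptide or Reg4 level were chosen after their values were seen. Tuft cells had at least 4 of 7 and T cells 3 of 6 markers. Doublets were kept; the automatic Scrublet threshold marked 2 WT barcodes (0.027%), so it did not work there, and removal at a fixed rate was an alternative. Single values of a few list members are not reported here. Other alternatives changed the gate, depth, scaling and minimums. Python 3.11.15, numpy 2.4.6, scipy 1.17.1 and scanpy 1.11.5 were used, and ratios were tested on simulated data.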

Additional observations from a re-analysis of the deposited data

Results flagged for a closer look

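Some barcodes met the EC gate but exceeded the mitochondrial limit and stayed out of the comparisons as reported. They numbered 4 of 154 in WT (2.60%, 0.712 to 6.52) and 1 of 72 in MG53-TG (1.39%, 0.0352 to 7.50), against 34.1% of 11002 and 46.4% of 9483 barcodes that did not meet the gate. The alternative with a mitochondrial limit of 50% admitted part of them, with 153 WT and 72 MG53-TG EC cells.

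For the 5 genes described here the ratio of MG53-TG over WT lay on one side of 0 in EC cells and on the other side in the other endocrine cells, each with a counting interval that left out 0. The difference between the 2 cell sets was not tested, because each genotype had 1 library. Reg3b had a log2 ratio of -2.73 in EC cells and 0.22 in other endocrine cells. Of the enterocyte genes, Fabp1 had -1.81 and 0.34, Rbp2 -1.52 and 0.74, and Apoa4 -1.22 and 0.95. Without the barcodes above 30000 UMIs the EC ratios were -0.95 for Fabp1, -0.75 for Rbp2 and -0.22 for Apoa4, none past 2-fold, and -1.63 for Reg3b. Olfm4, a stem cell gene, had 1.86 and -3.83, and 3 of the 71 MG53-TG EC cells held 99.3% of its UMIs. Its EC ratio turned to -3.04 without the barcodes above 30000 UMIs. In the other endocrine cells such barcodes, 25 in WT and 8 in MG53-TG, held 47.0% and 21.5% of the UMIs. The ratios of that cell set were not recomputed without them.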

How the results depend on the processing

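No paired analysis was possible because each genotype had 1 library. Of 70 recomputed values of the main comparisons, 56 stayed within the counting interval of the reported value or, for counts of genes, within 1.5 times of it. The difference in the share of kept barcodes ranged from -0.695 to -0.248 points and that in the share of endocrine barcodes from -8.72 to -1.84. Of the 556 recomputed values of single genes, 181 left the counting interval or, for ratios over other endocrine cells, a fixed band around the reported value. A reversal was scored only for ratios of at least 2-fold, and 2 were found. Changes of sign of smaller ratios were not counted as reversals. Trim72 in MG53-TG EC cells moved from 236 to 289 CPM as a mean of single cells and to 285 CPM when scaled without mitochondrial genes and the 10 most abundant genes. Genes at least 2-fold higher in MG53-TG, 38 as reported, numbered 68 with Tph1 at 1 UMI, 60 with 10 UMIs, 65 above 5000 UMIs, 67 without the highest Scrublet scores, 72 under that scaling, 9 with at least 100 UMIs and 200 CPM, and 470 with at least 10 UMIs. The genes 2-fold lower, 104 as reported, numbered 53 as means of single cells, 36 and 744 under those 2 minimums. At 100 UMIs and 200 CPM, 21 and 9 genes were 4-fold higher and lower than in other endocrine cells. The cause of these shifts was not tested, apart from the minimums, which change how many genes are counted. The log2 ratio of Muc2 turned from -1.84 to 1.16 without the highest Scrublet scores, and that of Olfm4 from 1.86 to -3.04 without barcodes above 30000 UMIs, an alternative chosen after seeing the data. Without those barcodes, 26 of the 38 higher and 46 of the 104 lower genes were shared with the reported sets.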
